A study of Mus musculus with 12 samples.

Results

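The genes described here are 10 members of the NRF2 pathway and of the antioxidant enzymes around it, Nfe2l2, Keap1, Nqo1, Gclc, Gclm, Txnrd1, Srxn1, Prdx6, Cat and Sod2. They were chosen by name, each symbol matched 1 gene identifier, and they are 10 of the 41388 genes counted in each library. The study sequenced RNA of brain cells from 8 mice aged 20 months on a C57BL/6 background, in 12 libraries. KO astrocytes (n = 4) came from Bmal fl/fl mice that carried ALDH1L1-CreERT2, a Cre recombinase that tamoxifen activates and that an astrocyte promoter drives. WT astrocytes (n = 4) came from mice on the same floxed background without the Cre, so the label WT does not mean an unmodified Bmal1 locus. KO flowthrough (n = 2) and WT flowthrough (n = 2) are the rest of the brain cells from 4 of these mice, those that anti-ACSA-2 beads, which pull astrocytes out of the digested tissue, left behind. Tamoxifen had been given to every mouse, Cre-negative ones included, at an age of 2 months (2 mg daily over 5 days, by mouth). Libraries are named by label and mouse number, and values are listed in the order KO 60, 62, 73 and 132 and WT 56, 57, 64 and 78 for astrocytes, and KO 60 and 132 and WT 56 and 64 for flowthrough.

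NRF2, the protein of Nfe2l2, is a transcription factor of the cap'n'collar family. In unstressed cells KEAP1 binds it and hands it to a CUL3 ubiquitin ligase for degradation. Oxidants and electrophiles modify cysteines of KEAP1, NRF2 then accumulates, pairs with small MAF proteins and binds antioxidant response elements in genes for glutathione synthesis, the thioredoxin system and quinone reduction. Because this control acts on the protein, the mRNA level of Nfe2l2 does not report NRF2 activity. In brain, astrocytes are known for a strong NRF2 response and for supplying glutathione precursors to neurons. BMAL1, the protein of the targeted gene Arntl, is the circadian transcription factor that binds E-boxes with CLOCK.

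Captured astrocytes had total counts of 44661924 to 49388569 under the KO label and 38691406 to 50120754 under the WT label. Flowthrough had 51221440 to 51551942 under the KO label and 45279488 to 51239564 under the WT label. Arntl was not lower under the KO label. In astrocytes its KO libraries were all above its WT libraries, as for 1.76% of tested genes. It had 401, 428, 645 and 628 counts in KO astrocytes, against 360, 239, 242 and 374 in WT astrocytes, and 261 and 284 in KO flowthrough, against 292 and 217 in WT flowthrough. The log2 fold change (KO minus WT) was 0.66 ± 0.19 in astrocytes (edgeR adjusted p = 0.473) and 0.075 ± 0.26 in flowthrough (adjusted p = 1). Which exons are floxed is not stated in the labels, and a count over the whole gene need not show their loss, so KO and WT below mean libraries labelled so. All 10 astrocyte markers checked (among them Aldh1l1, Aqp4, Slc1a3 and Atp1b2, the gene of the ACSA-2 antigen) were detected in every library, flowthrough included. KO 73 and WT 78 had Xist counts of 2411 and 1133 and Ddx3y counts of 3 and 1, the pattern of female tissue, and the other 10 libraries had the male pattern. KO 73 also had the lowest summed astrocyte markers among the 8 astrocyte libraries, 10525 CPM against 16012 to 20102 CPM over the WT astrocytes, and the highest summed microglia markers, 2188 CPM against 432 to 901 CPM. The edgeR comparison of KO with WT astrocytes was therefore also run without these 2 libraries. Levels, ratios, marker sums and the comparison of fractions were not recomputed without both.

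The start regions of these genes were searched for the sequence that NRF2 binds. Promoters from RefSeq (GRCm38.p6), 250 bases before to 50 bases after a start site, were found for 8 of the 10 members, all but Gclc and Prdx6. The antioxidant response element core was searched on both strands as TGACNNNGC or TGAGNNNGC. The second spelling was added after the sequences had been read. With TGACNNNGC alone 4 of the 8 members held a match, Nfe2l2, Gclm, Txnrd1 (in 1 of its 3 start regions) and Srxn1, beside 13.99% of all genes with a promoter. With either spelling they were the same 4, Srxn1 with 3 matches, beside 30.8% of genes (27.8% of promoters). The E-box CACGTG, also searched on both strands, was in none of the 8, and 8.09% of all genes with a promoter held it. The 4 regions with a match are shown 5′ to 3′ on the strand of the gene, with the matches in capitals (for a match on the opposite strand, its reverse complement). As given further on, Srxn1, Gclm and Txnrd1 were higher in astrocytes than in flowthrough and Nfe2l2 was lower. The Txnrd1 call was lost in most alternative settings. Members without a match also went both ways, Keap1 (0.37) and Sod2 (0.50) upward in log2 and Nqo1 (-0.78) downward.
Srxn1 (chr2:152105274-152105573, plus strand): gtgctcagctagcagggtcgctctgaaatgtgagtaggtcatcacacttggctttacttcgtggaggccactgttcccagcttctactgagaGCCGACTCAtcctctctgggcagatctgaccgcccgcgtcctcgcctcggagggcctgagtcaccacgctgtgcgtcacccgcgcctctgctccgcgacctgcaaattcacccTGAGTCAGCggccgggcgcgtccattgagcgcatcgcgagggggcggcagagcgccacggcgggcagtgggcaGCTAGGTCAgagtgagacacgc
Gclm (chr3:122245307-122245606, plus strand): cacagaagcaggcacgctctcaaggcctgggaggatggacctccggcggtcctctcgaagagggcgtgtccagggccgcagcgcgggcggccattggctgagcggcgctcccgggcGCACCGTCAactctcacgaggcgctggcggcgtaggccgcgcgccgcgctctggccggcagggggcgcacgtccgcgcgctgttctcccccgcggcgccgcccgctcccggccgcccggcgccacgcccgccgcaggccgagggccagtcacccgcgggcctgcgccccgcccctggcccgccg
Txnrd1 (chr10:82858956-82859255, plus strand): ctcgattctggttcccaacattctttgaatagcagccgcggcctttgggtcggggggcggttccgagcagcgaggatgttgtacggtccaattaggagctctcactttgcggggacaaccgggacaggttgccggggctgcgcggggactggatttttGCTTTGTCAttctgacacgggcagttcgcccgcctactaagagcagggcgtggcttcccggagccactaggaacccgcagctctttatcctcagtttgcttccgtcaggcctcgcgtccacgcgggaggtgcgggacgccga
Nfe2l2 (chr2:75704614-75704913, minus strand): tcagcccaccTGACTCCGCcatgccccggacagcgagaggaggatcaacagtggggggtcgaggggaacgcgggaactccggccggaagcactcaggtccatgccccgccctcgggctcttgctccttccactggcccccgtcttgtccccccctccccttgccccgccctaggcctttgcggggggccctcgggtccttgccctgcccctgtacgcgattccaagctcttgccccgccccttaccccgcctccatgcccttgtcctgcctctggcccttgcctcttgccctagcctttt
In Srxn1 the matches begin 158 and 45 bases before the start site and 28 bases after it, and the middle one reads TGAGTCAGC on the gene's strand. In Gclm, Txnrd1 and Nfe2l2 they begin 134, 92 and 240 bases before it. A match is a description of letters in this window and says nothing of binding.

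Prdx6 was by far the most abundant of the 10 mRNAs. To compare genes with one another, CPM (counts scaled to library size, here with TMM factors that correct for composition) were divided by exon length in kilobases. On this scale Prdx6, a peroxiredoxin that reduces phospholipid hydroperoxides and also has phospholipase activity, had a level of 591 ± 109.6 in KO astrocytes and 705 ± 61.7 in WT astrocytes (SD, n = 4 each). Cat, the peroxisomal catalase that breaks down hydrogen peroxide, followed at 76.5 ± 6.77 in KO and 66.4 ± 5.14 in WT astrocytes, and Sod2, the mitochondrial manganese superoxide dismutase, at 36.6 ± 4.92 and 39.4 ± 4.13 in KO and WT astrocytes. Gclm was the lowest, at 2.72 ± 0.207 in KO and 2.93 ± 0.351 in WT astrocytes. Both astrocyte groups had the same order of all 10 genes, Prdx6, Cat, Sod2, Nfe2l2, Nqo1, Srxn1, Keap1, Txnrd1, Gclc and Gclm. Libraries of neighbouring genes in this order overlapped for Srxn1 and Keap1 and for Txnrd1 and Gclc in both groups, for Sod2 and Nfe2l2 in KO astrocytes and for Nfe2l2 and Nqo1 in WT astrocytes. The remaining neighbours were apart. In flowthrough of either label the means of Nfe2l2 and Nqo1 stood above that of Sod2, although the libraries of Nqo1 and Sod2 overlapped in WT flowthrough. The 3 genes were at 60.4 ± 11.2, 37.4 ± 2.49 and 25.4 ± 2.17 in KO flowthrough and 66.8 ± 3.05, 34.0 ± 7.24 and 28.5 ± 2.92 in WT flowthrough (SD, n = 2 each).

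**Figure D1:**
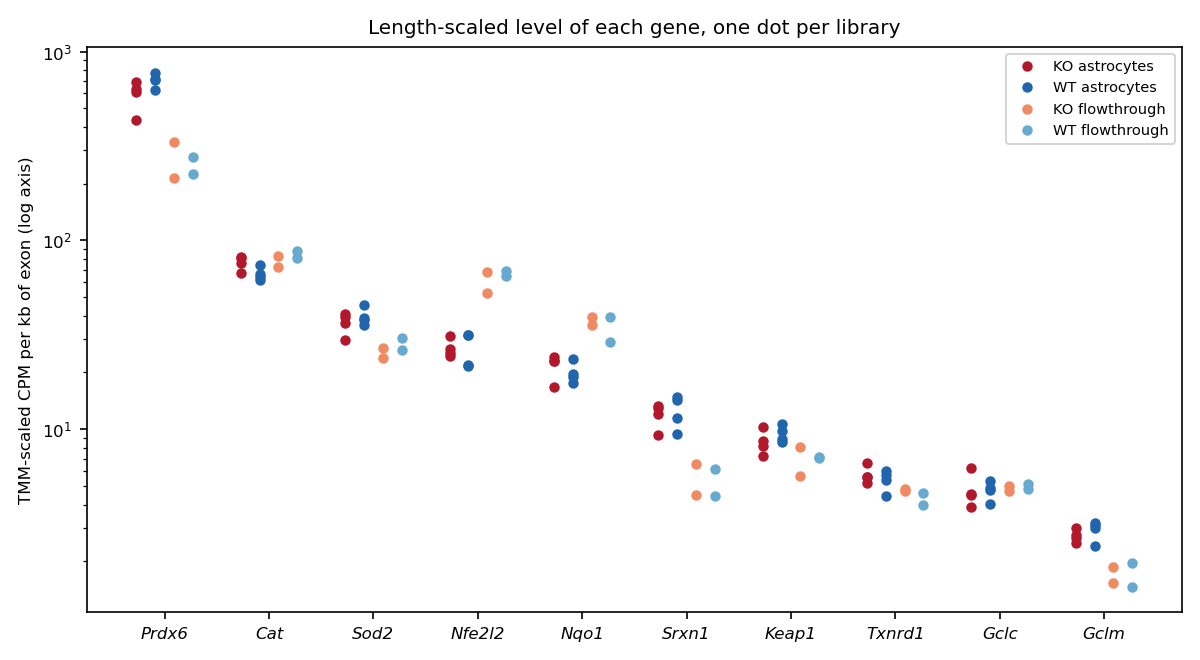
Length-scaled level (TMM-scaled CPM per kilobase of exon, log axis) of the 10 genes, 1 dot per library, with KO astrocytes, WT astrocytes, KO flowthrough and WT flowthrough from left to right within each gene. Prdx6 lies above all other genes in every group, and Nfe2l2 and Nqo1 are the genes whose flowthrough dots lie above their astrocyte dots throughout.

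The first comparison asks whether captured astrocytes of the KO label differ from those of the WT label in this pathway. None of the 10 genes passed an adjusted p under 0.05 in edgeR's quasi-likelihood test, where 0.232% of the 18527 tested genes passed (43 genes), and none had an unadjusted p under 0.05, which 5.37% of all tested genes had. DESeq2 and limma-voom also called none of the 10. Log2 fold changes (KO minus WT) ran from -0.25 to 0.21, with 5 of 10 below 0 as for 49.2% of all tested genes, and had a median of -0.024 beside 0.0044 over all tested genes. The 95% intervals of the 10 fold changes together spanned 0.641-fold (lower end of Prdx6) to 1.39-fold (upper end of Nqo1). Each gene's own interval was narrower, such as 0.971-fold to 1.38-fold for Cat. Changes inside a gene's own interval are not excluded by these libraries. KO and WT libraries overlapped for all 10 genes, while 4.03% of tested genes had no overlap (1.76% higher and 2.27% lower in KO). Of the 43 genes, 27 were higher (0.146%) and 16 lower (0.0864%) in KO, and 21 and 7 with library size alone as the scaling. All 8 microglia markers (median 0.63 in log2) and all 8 oligodendrocyte markers (0.797) had higher values in KO astrocytes. Of the astrocyte markers 8 of 10 had lower values (median -0.23), and none of these markers passed. The microglia sum was 2188 CPM in KO 73 and 448, 735 and 861 CPM in KO 60, 62 and 132. The latter lay inside the range of WT astrocytes, 432 to 901 CPM. The oligodendrocyte sum of KO 73 (24088 CPM) was the lowest among KO astrocytes. These medians were not recomputed without KO 73. With the mean level of the microglia, oligodendrocyte, endothelial and neuron markers as a covariate none of the 10 genes passed, 175 genes passed over the whole table, and the log2 fold changes of Nfe2l2 (-0.19), Keap1 (0.0049), Nqo1 (-0.043), Gclc (-0.13), Srxn1 (0.18) and Sod2 (0.049) changed sign. In these bulk libraries fewer cells of a type and less RNA per cell cannot be told apart.

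**Figure D2:**
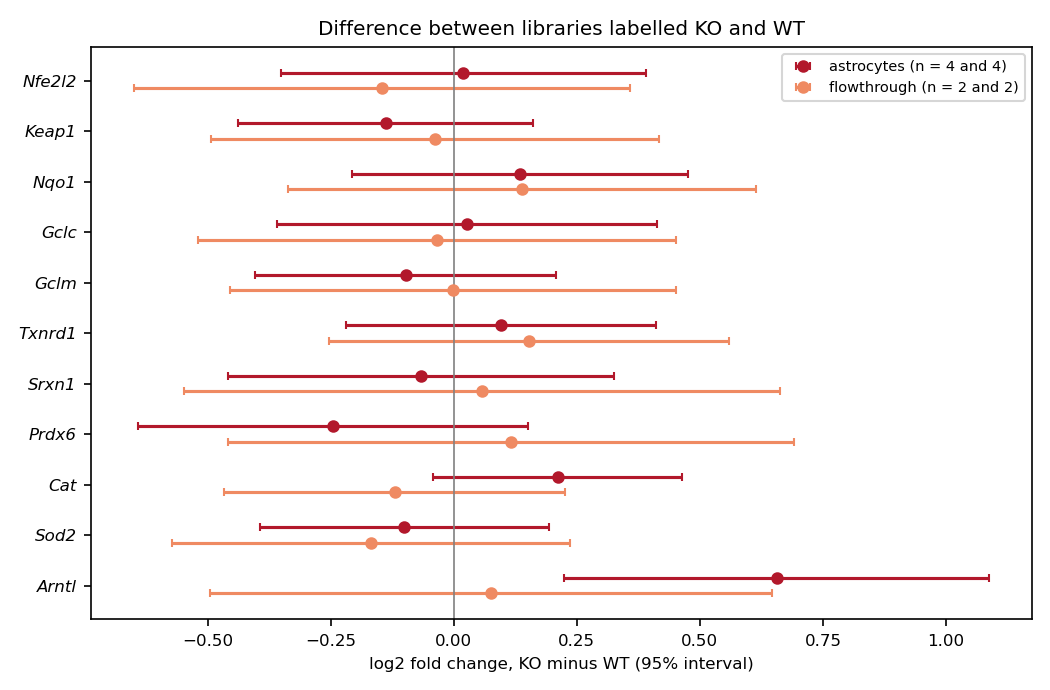
Log2 fold change of KO minus WT (horizontal axis) for the 10 genes and the targeted gene Arntl, in astrocytes (red, upper of each pair) and flowthrough (orange, lower), with 95% intervals from edgeR. Every interval of the 10 genes includes 0, and for astrocytes their estimates lie between -0.25 and 0.21. The astrocyte interval of Arntl (0.22 to 1.09) lies above 0.

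Among the regulators, Nfe2l2 (ENSMUSG00000015839, chromosome 2, 75675513 to 75704641) had 96.1, 92.3, 119 and 101 CPM in KO astrocytes, against 120.4, 82.3, 119 and 83.1 CPM in WT astrocytes. The WT libraries split into 2 near 82 and 2 near 120 CPM, and the KO libraries lay between them. The log2 fold change was 0.019 ± 0.17 (95% interval -0.35 to 0.39, edgeR adjusted p = 0.996). Keap1 (ENSMUSG00000003308, chromosome 9, 21229730 to 21239332), the adaptor that marks NRF2 for degradation, had 39.0, 45.7, 32.5 and 36.4 CPM in KO and 38.5, 43.9, 39.9 and 47.6 CPM in WT astrocytes. KO 73 was the lowest and WT 78 the highest of the 8, and the groups overlapped (log2 fold change -0.14 ± 0.13, adjusted p = 0.995). Keap1 shares 510 exon bases with Gm16754 on the opposite strand, which had 0 to 24 counts per library.

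Nqo1 (ENSMUSG00000003849, chromosome 8, 107388225 to 107403206), the quinone reductase that is a classical readout of NRF2, had 26.2, 35.7, 37.4 and 35.8 CPM in KO astrocytes, against 36.7, 29.2, 30.5 and 27.2 CPM in WT astrocytes. KO 60 was the lowest of all 8 libraries, whereas the other 3 KO libraries and WT 56 were the highest, so the groups overlapped. Its log2 fold change was 0.13 ± 0.15 (95% interval -0.21 to 0.48, adjusted p = 0.995).

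Glutamate cysteine ligase makes the first and limiting step of glutathione synthesis from a catalytic subunit, Gclc, and a modifier subunit, Gclm. Gclc (ENSMUSG00000032350, chromosome 9, 77754535 to 77794485) had 15.6, 13.3, 21.4 and 15.5 CPM in KO and 13.7, 18.1, 16.7 and 16.4 CPM in WT astrocytes. KO 73 stood above the other 7 libraries, and KO 62 was the lowest. Gclm (ENSMUSG00000028124, chromosome 3, 122245557 to 122269984) had 15.2, 13.8, 16.6 and 14.8 CPM in KO and 13.4, 17.3, 16.6 and 17.7 CPM in WT astrocytes, where WT 56 was the lowest of the 8. The log2 fold changes were 0.027 ± 0.17 for Gclc (adjusted p = 0.996) and -0.10 ± 0.14 for Gclm (adjusted p = 0.995), and the groups overlapped for both. On the length scale the ratio of Gclc to Gclm was 1.75 ± 0.237 in KO astrocytes and 1.62 ± 0.0846 in WT astrocytes (SD, n = 4 each). Part of the Gclm exons, 296 bases, is shared with Gm17494 on the opposite strand, which had 93 to 231 counts per library. Another overlap, of 244 bases, is with Gm6061 on the same strand, which had 0 counts in every library. Whether the counting used strand is not given, so Gclm and Keap1 carry that uncertainty.

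Txnrd1, the cytosolic selenoprotein that reduces thioredoxin with NADPH, and Srxn1, sulfiredoxin, which repairs certain overoxidised peroxiredoxins, are given next. Prdx6 is listed beside them without being assigned to the thioredoxin system. Txnrd1 (ENSMUSG00000020250, chromosome 10, 82859206 to 82897724) had 22.5, 19.2, 17.7 and 19.1 CPM in KO and 15.3, 18.5, 20.5 and 19.6 CPM in WT astrocytes (log2 fold change 0.10 ± 0.14, adjusted p = 0.995). Srxn1 (ENSMUSG00000032802, chromosome 2, 152105516 to 152111376) had 36.8, 37.4, 26.3 and 34.0 CPM in KO and 26.7, 40.6, 32.3 and 42.0 CPM in WT astrocytes (log2 fold change -0.066 ± 0.18, adjusted p = 0.996). WT 56 was the lowest of the 8 for Txnrd1 and KO 73 for Srxn1, and the groups overlapped for both. Prdx6 (ENSMUSG00000026701, chromosome 1, 161240112 to 161251219) had 2519.8, 2326, 1593 and 2245 CPM in KO astrocytes, against 2599.8, 2634, 2287 and 2835 CPM in WT astrocytes. KO 73 was well below the other 7, and the remaining 3 KO libraries lay within or just below the WT range. The log2 fold change was -0.25 ± 0.18 (95% interval -0.64 to 0.15, adjusted p = 0.995), and without KO 73 and WT 78 it was -0.079. Prdx6b, a near-identical copy of Prdx6, had 41 to 160 counts per library. How multi-mapped reads were handled is not given, so the split between these copies is uncertain.

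Among the enzymes that remove hydrogen peroxide and superoxide directly, Cat (ENSMUSG00000027187, chromosome 2, 103453849 to 103485160) had 198, 212, 176 and 214 CPM in KO astrocytes, against 193, 162, 167 and 173 CPM in WT astrocytes. KO 60, 62 and 132 were above all 4 WT libraries and KO 73 fell inside the WT range. Its log2 fold change of 0.21 ± 0.11 (95% interval -0.042 to 0.46) had the smallest p of the 10 genes, 0.0923 unadjusted and 0.972 adjusted over all genes. Over 18 alternative settings its log2 fold change was 0.18 to 0.27 and its adjusted p at least 0.305. Red blood cells are rich in catalase, and the summed erythroid markers were 23.1 to 708 CPM in KO and 7.18 to 555 CPM in WT astrocytes, a part in the Cat values that was not tested. Sod2 (ENSMUSG00000006818, chromosome 17, 13007839 to 13018119) had 150.2, 156, 114 and 139 CPM in KO and 136, 145, 149 and 173 CPM in WT astrocytes, with KO 73 lowest and WT 78 highest (log2 fold change -0.10 ± 0.13, adjusted p = 0.995).

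**Figure D3:**
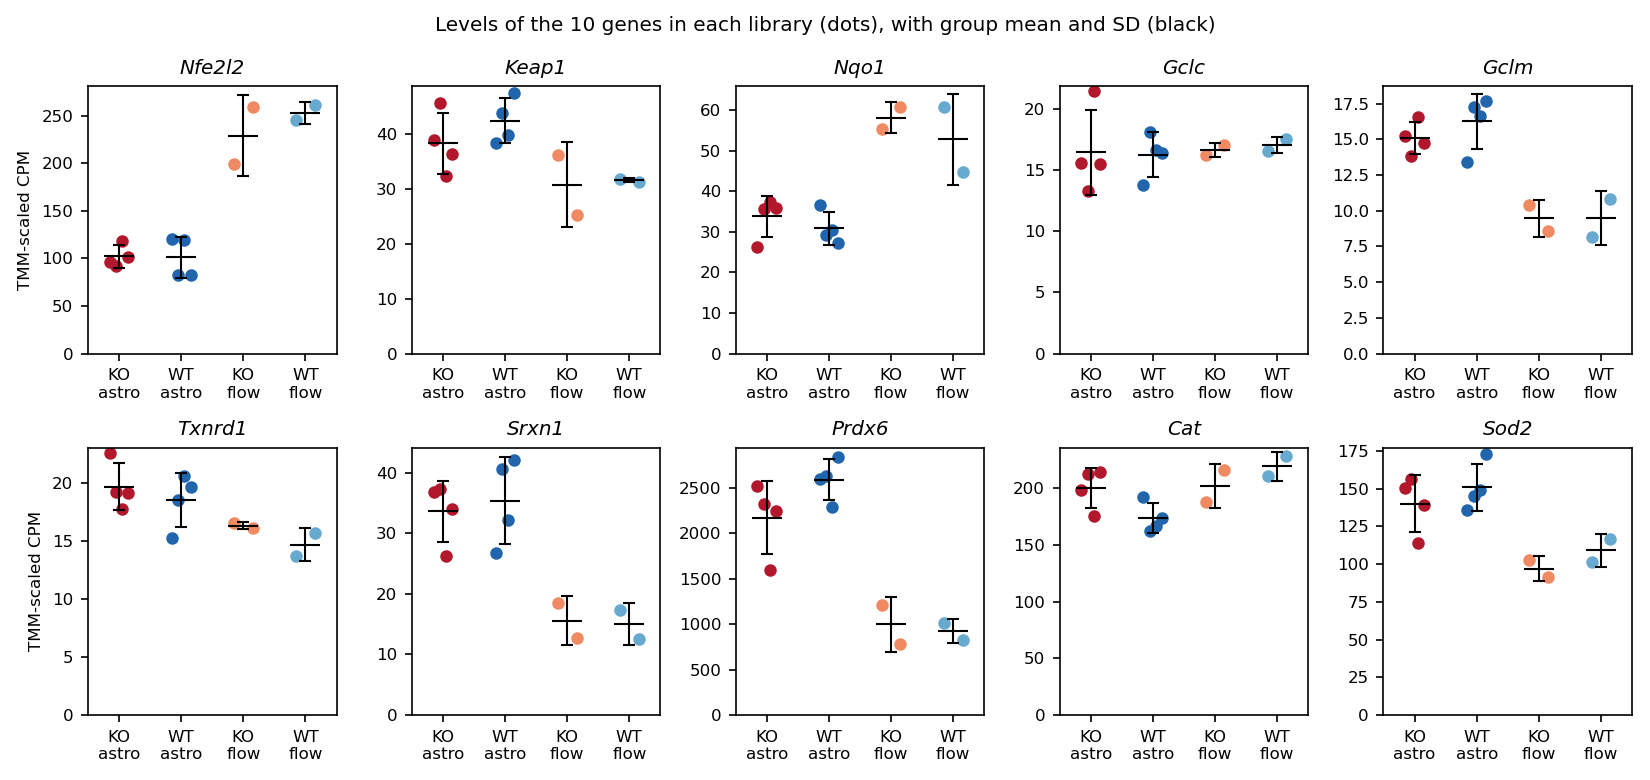
TMM-scaled CPM (vertical axes, starting at 0) of each gene in KO astrocytes, WT astrocytes, KO flowthrough and WT flowthrough, with 1 dot per library and the group mean and SD in black. KO and WT dots overlap in astrocytes for all 10 genes, and the fractions are apart for Nfe2l2, Nqo1, Gclm, Srxn1 and Prdx6.

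KO 73 lay at an end of the KO astrocyte group for 10 of the 10 genes, the lowest for 6 and the highest for 4. It was at an end of that group for 73.2% of all tested genes, so this was frequent for any gene. For 7 of the 8 members that differed between fractions (below), KO 73 deviated toward the flowthrough level, with Gclm the exception. How many of all tested genes did so was not counted, so this describes these 8 genes only. KO 73 held the highest microglia (2188 CPM), choroid plexus (9234 CPM), ependymal (629 CPM) and granulocyte (217 CPM) marker sums among astrocyte libraries. It did not hold the highest erythroid sum (57.3 CPM, against 708 CPM in KO 62) or endothelial sum (621 CPM, against 741 CPM in WT 64). Of the 4 ependymal markers 0 passed between fractions. No marker of these lists was at 0 in all libraries of a group. The part of these cells in the KO 73 values was not tested. With KO 73 and WT 78 both left out the 10 log2 fold changes still gave no call, and those of Nfe2l2, Gclc, Srxn1 and Sod2 changed sign.

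**Figure D4:**
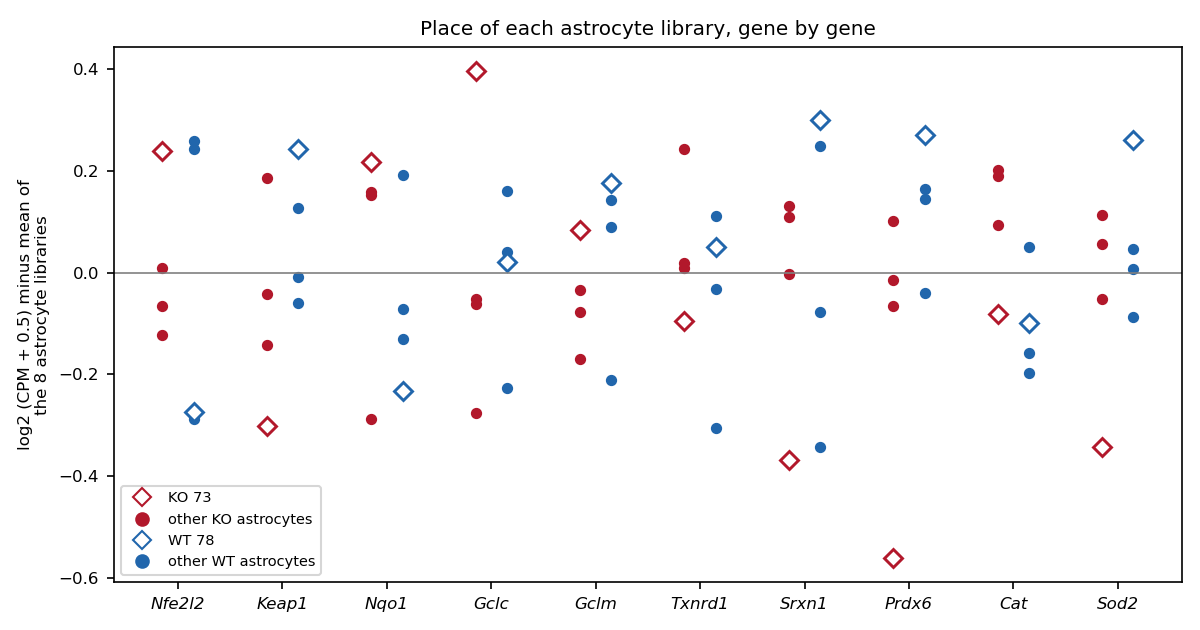
Log2 (CPM + 0.5) of each astrocyte library minus the mean of the 8 (vertical axis) for each gene, KO in red left of WT in blue, with KO 73 and WT 78 as open diamonds. KO 73 is the lowest KO library for 6 genes and the highest for 4, and the KO and WT points of each gene overlap.

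The second comparison asks the same of the cells left after capture, with 2 libraries a label. None of the 10 genes passed in edgeR, where 0.00476% of 20997 tested genes did (1 gene), and none had an unadjusted p under 0.05, which 4.63% of all tested genes had. DESeq2 and limma-voom called none of them either. Log2 fold changes (KO minus WT) ran from -0.17 for Sod2 to 0.15 for Txnrd1, with 6 of 10 below 0 beside 45.6% of all tested genes, and had a median of -0.018 beside 0.037 over all tested genes. With 1 library left out Sod2 ranged over -0.27 (without WT 56) to -0.057 (without WT 64), and Txnrd1 over 0.059 (without WT 56) to 0.26 (without WT 64). The 95% intervals together spanned 0.637-fold to 1.61-fold. Nfe2l2 had 199 and 259 CPM in KO flowthrough, against 245 and 262 CPM in WT flowthrough, and KO 60 was the lowest of the 4. Nqo1 had 55.4 and 60.9 CPM in KO and 60.7 and 44.8 CPM in WT flowthrough, and WT 64 was the lowest. Prdx6 had 1213 and 783 CPM in KO and 1016 and 826 CPM in WT flowthrough, with KO 60 highest and KO 132 lowest. Txnrd1, with 16.5 and 16.1 CPM in KO and 13.7 and 15.6 CPM in WT flowthrough, was the 1 gene of the 10 whose libraries did not overlap, as was the case for 33.6% of all tested genes (17.1% with KO higher and 16.5% with KO lower). KO 60 was above KO 132 in 6 of the 10 genes, and the share over all genes was not counted. Summed astrocyte markers were 7578 CPM in KO 60 flowthrough, against 3732 CPM in KO 132 and 2886 to 4198 CPM in WT flowthrough. Oligodendrocyte (29731 against 15287 CPM) and neuron sums (1181 against 558 CPM) were also higher in KO 60 than in KO 132. Its microglia, endothelial, erythroid, granulocyte, choroid plexus and ependymal sums were lower. Summed erythroid markers were 1973 to 2105 CPM in KO and 6349.8 to 13984 CPM in WT flowthrough, while Cat had 188 and 216 CPM in KO and 210.4 and 228 CPM in WT flowthrough. Among the other marker lists all 8 neuron (median log2 fold change 0.93) and all 8 endothelial markers (0.64) had higher values in KO flowthrough, and all 5 choroid plexus (-0.80), 4 ependymal (-0.95) and 5 granulocyte markers (-0.56) lower ones, none of them passing. The part of these cells in the members' values was not tested.

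Whether the label difference itself differed between astrocytes and flowthrough was tested as an interaction. None of the 10 genes passed in edgeR, as 0% of 20997 tested genes did, and none had an unadjusted p under 0.05, which 3.94% of tested genes had. DESeq2 called none of the 10. Estimates were below 0 for 6 of the 10 and for 53% of tested genes. The largest estimates were -0.37 ± 0.32 for Prdx6 and 0.32 ± 0.19 for Cat (astrocyte minus flowthrough difference in log2, adjusted p = 0.934 for both), and the intervals of all 10 included 0. The Prdx6 estimate was -0.0082 without KO flowthrough 60 and -0.65 without KO flowthrough 132.

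The fractions themselves differed in most of these genes. The comparison of the 8 astrocyte with the 4 flowthrough libraries asks how the pathway in captured astrocytes stands against the remaining brain cells. By edgeR 8 of the 10 genes passed, 6 higher and 2 lower in astrocytes, beside 49.2% of 20997 tested genes that passed in either direction, 24.8% higher and 24.4% lower. At an unadjusted p under 0.05 the count was 8 of 10 beside 55.5% of tested genes, and 4 of 10 estimates were below 0 beside 49.8%. Libraries of the fractions were apart for 5 of the 10, 3 with astrocytes higher and 2 with astrocytes lower, beside 29.2% of all tested genes (12.2% higher and 17% lower). The median log2 fold change of the 10 was 0.34 and that of all tested genes 0.0040. With library size alone as the scaling, the median of all genes moved to -0.14, and the estimates of the 10 genes moved with it, by -0.16 to -0.13. All 4 flowthrough libraries had the male Xist and Ddx3y pattern, so sex was not balanced between fractions. The mitochondrial share of counts moved with the fraction as well, at 12.6 to 17.0% in KO and 13.7 to 21.4% in WT astrocytes, against 7.95 to 12.7% in KO and 4.66 to 8.20% in WT flowthrough, and its part in these results was not tested.

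Nfe2l2 had the largest decrease of the 10. Its lowest, median and highest values were 82.3, 98.7 and 120.4 CPM in astrocytes (n = 8), against 199, 252 and 262 CPM in flowthrough (n = 4). Every flowthrough library was above every astrocyte library, and in the 4 mice with both fractions the astrocyte library was the lower one in all 4. The log2 fold change (astrocytes minus flowthrough) was -1.25 ± 0.14 (edgeR adjusted p = 4.7e-05). Nqo1 fell too, with 26.2, 33.1 and 37.4 CPM in astrocytes, against 44.8, 58.1 and 60.9 CPM in flowthrough (log2 fold change -0.78 ± 0.13, adjusted p = 5.9e-04), again without overlap and in 4 of 4 mice.

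Keap1 rose by contrast, with 32.5, 39.4 and 47.6 CPM in astrocytes, against 25.3, 31.6 and 36.3 CPM in flowthrough (log2 fold change 0.37 ± 0.13, adjusted p = 0.0322). The fractions overlapped, the astrocyte library was higher in 4 of 4 mice, and the call was lost in 10 of 21 alternative settings. These were library size scaling (log2 fold change 0.22, adjusted p = 0.118), no filter on low counts (adjusted p = 0.0563), the 8 libraries of the 4 mice with both fractions (0.29, adjusted p = 0.109), and leaving out KO flowthrough 132 (0.25, adjusted p = 0.166), WT flowthrough 64 (adjusted p = 0.111) or 56 (0.0786), WT astrocytes 78 (0.0577) or 57 (0.0544), or KO astrocytes 62 (0.0516) or 60 (0.0503). On the length scale the ratio of Nfe2l2 to Keap1 was 3.22 ± 0.816 in KO astrocytes, 2.87 ± 0.853 in WT astrocytes (SD, n = 4 each), 9.26 ± 3.95 in KO flowthrough and 9.45 ± 0.539 in WT flowthrough (SD, n = 2 each).

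Prdx6 had the largest increase of the 10 in astrocytes. Its lowest, median and highest values were 1593, 2423 and 2835 CPM in astrocytes, against 783, 921 and 1213 CPM in flowthrough, and the fractions did not overlap (log2 fold change 1.31 ± 0.17, adjusted p = 1.3e-04). Srxn1 rose with it, at 26.3, 35.4 and 42.0 CPM in astrocytes, against 12.5, 15.05 and 18.4 CPM in flowthrough (log2 fold change 1.18 ± 0.18, adjusted p = 3.3e-04). Gclm had 13.4, 15.9 and 17.7 CPM in astrocytes, against 8.14, 9.47 and 10.8 CPM in flowthrough (log2 fold change 0.73 ± 0.13, adjusted p = 9.2e-04). Both were without overlap, and all 3 genes were higher in the astrocyte library of 4 of 4 mice. Gclc, the partner of Gclm in the same enzyme, did not pass (log2 fold change -0.044 ± 0.14, 95% interval -0.34 to 0.25, edgeR adjusted p = 0.809). It had 13.3, 16.0 and 21.4 CPM in astrocytes, against 16.2, 16.8 and 17.5 CPM in flowthrough. Its astrocyte library was still the lower one in 4 of 4 mice, so this count does not separate called genes from others. The share of all genes that went 1 way in 4 of 4 mice was not counted. The Gclc to Gclm ratio on the length scale was lower in every astrocyte library than in any flowthrough library, at 1.56 to 2.09 in KO and 1.503 to 1.70 in WT astrocytes, against 2.53 to 3.23 in KO and 2.62 to 3.296 in WT flowthrough.

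Sod2 rose, with 114, 147 and 173 CPM in astrocytes, against 91.2, 102 and 117 CPM in flowthrough (log2 fold change 0.50 ± 0.12, adjusted p = 0.00413), higher in 4 of 4 mice although the lowest astrocyte library, KO 73, lay below the highest flowthrough library. Txnrd1 had 15.3, 19.1 and 22.5 CPM in astrocytes, against 13.7, 15.9 and 16.5 CPM in flowthrough (log2 fold change 0.30 ± 0.11, adjusted p = 0.0465). That call held in 5 of 21 alternatives, 1 of them the same fit at a threshold of 0.1. With the mouse as a replicate block the log2 fold change was 0.31 and the adjusted p 0.0532. It was also lost with RLE factors (adjusted p = 0.0519), library size alone (0.15, adjusted p = 0.315), no filter, limma-voom (adjusted p = 0.0504) and the 8 libraries of the 4 mice. Leaving out any 1 library except KO astrocytes 73 or WT astrocytes 56 lost it too, with adjusted p of 0.0601 to 0.165. Cat did not pass, with 162, 184 and 214 CPM in astrocytes, against 188, 213 and 228 CPM in flowthrough (log2 fold change -0.18 ± 0.10, 95% interval -0.39 to 0.035, adjusted p = 0.150). With library size scaling Cat passed as lower in astrocytes (log2 fold change -0.33, adjusted p = 0.0312).

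**Figure D5:**
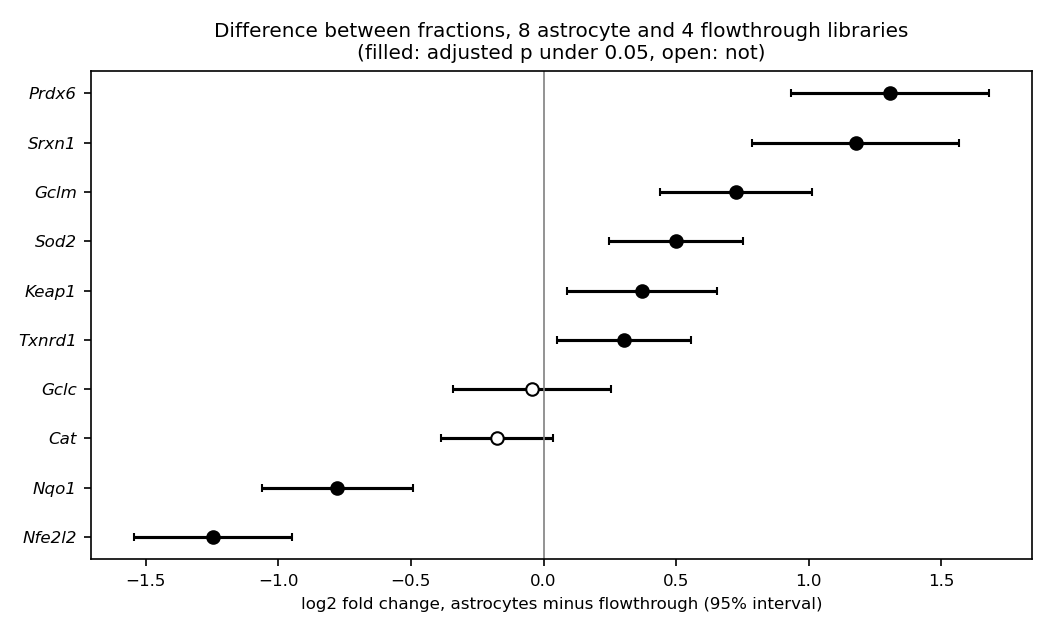
Log2 fold change of astrocytes minus flowthrough (horizontal axis, 95% intervals from edgeR) for the 10 genes, ordered by size, filled where the adjusted p was under 0.05. Prdx6 is at the top with 1.31, Nfe2l2 at the bottom with -1.25, and the open points are Gclc and Cat.

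Cell type markers also differed between the fractions. Microglia markers summed to 448 to 2188 CPM in KO and 432 to 901 CPM in WT astrocytes. In flowthrough they summed to 9179 to 14867 CPM in KO and 10153 to 10796 CPM in WT. Choroid plexus markers summed to 1785 to 9234 CPM in KO and 1975 to 5828 CPM in WT astrocytes. In flowthrough their sums were above those of microglia, at 19158 to 23109 CPM in KO and 33608 to 39839 CPM in WT. Astrocyte markers summed to 10525 to 21904 CPM in KO and 16012 to 20102 CPM in WT astrocytes, against 3732 to 7578 CPM in KO and 2886 to 4198 CPM in WT flowthrough. All 10 astrocyte markers passed as higher in astrocytes and all 8 microglia, 8 endothelial, 5 erythroid, 5 granulocyte and 5 choroid plexus markers as lower. Markers of other cells were present in the captured fraction. All 8 neuron markers and 4 of the 8 oligodendrocyte markers passed as higher in astrocytes than in flowthrough, and the oligodendrocyte sum was 24088 to 38331 CPM in KO and 20213 to 26554 CPM in WT astrocytes. No marker of any of the 9 lists was at 0 in every library of a group. Which cells carried the members' RNA was not tested.

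Other genes of the pathway were read from 3 lists. In astrocytes 0 of 11 partners and regulators of NRF2 (such as Nfe2l1, Bach1, Cul3 and the small MAF genes), 0 of 23 further NRF2 targets and 0 of 30 further antioxidant enzymes passed between KO and WT by edgeR, with 0, 1 and 0 genes at an unadjusted p under 0.05 and medians of 0.078, 0.0020 and -0.016. Of all tested genes 0.232% passed and 5.37% had such a p, so these counts lie near the background. The smallest p in each list belonged to Gsk3b, a kinase that promotes NRF2 degradation (log2 fold change 0.17 ± 0.12, adjusted p = 0.995), Ugdh, UDP-glucose dehydrogenase (0.47 ± 0.16, adjusted p = 0.638), and Gss, glutathione synthetase (0.31 ± 0.14, adjusted p = 0.931). Next were Cul3 (-0.22 ± 0.20) and Bach2 (0.24 ± 0.23), the pentose phosphate enzyme gene Taldo1 (0.28 ± 0.13) and the glutathione transferase gene Gsta4 (-0.17 ± 0.11), and the stress-induced Sesn2 (-0.52 ± 0.24) and the extracellular superoxide dismutase gene Sod3 (-0.46 ± 0.22). In flowthrough 0 of the same 64 genes passed, with 0, 1 and 2 at an unadjusted p under 0.05 and medians of 0.14, -0.074 and -0.14, beside 0.00476% and 4.63% of all tested genes. Those with the smallest p there were Gsk3b (0.29 ± 0.17), the small MAF gene Mafg (0.28 ± 0.17) and Btrc (0.19 ± 0.17), Gsta4 (-0.34 ± 0.14), the carbonyl reductase gene Cbr1 (-0.33 ± 0.16) and Slc7a11 (0.45 ± 0.24), and Gpx1, glutathione peroxidase (-0.58 ± 0.20), Sod3 (-0.66 ± 0.30) and Selenow (0.64 ± 0.37), each with an adjusted p of 1. Leaving out KO flowthrough 60 brought Selenow to 0.035 and Slc7a11 to 0.068, leaving out KO flowthrough 132 brought them to 1.06 and 0.75, and Gpx1 ranged over -0.84 (without WT flowthrough 56) to -0.27 (without WT flowthrough 64). None of the lists held a gene that passed the interaction, where Ugdh (0.75 ± 0.26) and Gss (0.56 ± 0.23) had the smallest p (adjusted p = 0.934 for both).

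Between fractions 6 of 11 partners and regulators passed, 4 higher and 2 lower in astrocytes, beside the 49.2% of all tested genes given above. Both BACH genes, repressors that compete with NRF2 at its elements, fell, Bach1 with 2.91 to 6.57 CPM in astrocytes, against 9.43 to 14.4 CPM in flowthrough (log2 fold change -1.60 ± 0.23), and Bach2 with -0.95 ± 0.17. Gsk3b (0.68 ± 0.11), Nfe2l1, the NRF2 relative NRF1 (0.54 ± 0.14), Rbx1 (0.43 ± 0.12) and Sqstm1, the autophagy receptor that sequesters KEAP1 (0.24 ± 0.086), rose. The call of Sqstm1 held in 8 of 21 alternatives and was lost with the mouse as a replicate block (0.18, adjusted p = 0.137) and on leaving out any 1 library except KO astrocytes 73 or 132 or WT astrocytes 64. Of the 23 further targets 13 passed, 4 higher and 9 lower, beside 24.8% of all tested genes higher and 24.4% lower. Hmox1, heme oxygenase 1, had 12.7 to 20.3 CPM in astrocytes, against 31.6 to 42.2 CPM in flowthrough (-1.28 ± 0.14, adjusted p = 4.5e-05). Pgd of the pentose phosphate pathway (-1.35 ± 0.15), Gsr, glutathione reductase (-1.23 ± 0.20), Blvrb, biliverdin reductase B (-0.68 ± 0.10), and the glutathione conjugate exporter gene Abcc1 (-1.32 ± 0.21) also fell. Slc7a11, the cystine importer that feeds glutathione synthesis, rose, with 53.2 to 74.9 CPM in astrocytes, against 20.7 to 39.9 CPM in flowthrough (1.21 ± 0.15, adjusted p = 1.1e-04). Of the 30 further antioxidant enzymes 13 passed, 6 higher and 7 lower, a share below the 49.2% of all tested genes. Gpx1 fell (-1.35 ± 0.12, adjusted p = 1.7e-05), as did Msrb1 (-0.76 ± 0.15) and Nnt, the mitochondrial transhydrogenase (-0.67 ± 0.14), whereas Selenow, selenoprotein W (1.44 ± 0.24), and the mitochondrial Txn2 (0.84 ± 0.18) and Glrx2 (0.73 ± 0.18) rose. The medians of the 3 lists were 0.24, -0.21 and -0.11.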

How the data were processed

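Each library had 1 deposited table with raw counts, CPM and RPKM for 41388 genes. As checked on the files, the deposited raw counts are integers, the authors' CPM columns are those counts scaled to the library total (within 5.1e-11), and their deposited RPKM columns are CPM divided by exon length in kilobases. The submitters' processing notes list the build GRCm38 and, with no order, STAR 2.5.1a, featureCounts 1.4.6-p5, Subread and bcl2fastq. Strand setting, multi-mapped reads and annotation release are not stated there. Symbols came from a reference name table (40254 identifiers matched, and all 135 listed genes).

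The raw counts went into edgeR 4.0.16 (R 4.3.3; quasi-likelihood test, TMM, filterByExpr by group, two-sided, Benjamini-Hochberg over all tested genes, called under 0.05). KO and WT astrocytes were compared in 8 libraries (6 residual degrees of freedom). The other comparisons used all 12 libraries with 4 group means (8 residual degrees of freedom). The standard error is the log2 fold change over the root of its F. Printed CPM are TMM-scaled over the 12 libraries. The procedure was tested on simulated data. A count of 3, taken as the floor, is 0.0541 to 0.0879 CPM on that scale, for counting error only.

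The named genes are the 10 members, and from each pathway list those that passed (at most 6) or, with fewer than 3 passing, the 3 with the smallest p. Members and lists were chosen with earlier results of these data known. The mouse number pairs fractions of 4 mice, since both libraries came from 1 animal. Deviations from group means correlated at -0.0066 (mouse 132), 0.155 (56), 0.352 (60) and 0.251 (64). Alternatives were RLE factors, library size alone, other filters, DESeq2 1.42.0, limma-voom (limma 3.58.1), a threshold of 0.1, other sets of libraries, a covariate for RNA of other cells, the mouse as a block, and each library left out. No pair of libraries was identical. That each number is a separate animal is taken from the labels.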

Additional observations from a re-analysis of the deposited data

Results flagged for a closer look

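Nqo1 in KO astrocytes had 1 library far from the other 3. KO 60 had 26.2 CPM and the other 3 had 35.7, 37.4 and 35.8 CPM, so the gap was 0.85 of the group's range, above Dixon's 95% critical value for 4 samples. It was 1 of 20 such checks over the 10 genes and both astrocyte groups, and chance flags about 1 in 20. None of the 10 genes differed between fractions in its KO minus WT difference by the interaction test.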

How the results depend on the processing

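No alternative called any of the 10 genes between KO and WT in astrocytes (18 settings), in flowthrough (20) or in the interaction (20). Between fractions 6 to 8 of the 10 were called in 21 settings. The threshold of 0.1 is 1 of the 21 and reuses the main fit, so no main call can be lost there. Nfe2l2, Nqo1, Gclm, Srxn1, Prdx6 and Sod2 passed there in all 21, Keap1 in 11, Txnrd1 in 5, Cat in 1 and Gclc in 0. The cause of the changes below was not tested, and every value that changed sign was one that did not pass.

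Genes called over the whole table in astrocytes (43) were 28 with library size alone, 184 with DESeq2, 75 at an adjusted p under 0.1, 175 with a covariate for RNA of other cells and 12 to 37 with 1 library left out, under 1.5 times from 43 only without KO 73. In flowthrough (1) they were 22 with DESeq2, 0 with limma-voom, 0 with the 4 flowthrough libraries alone and 0 to 5 with 1 library left out (5 without KO 132, 0 without WT 56 or WT 64). In the interaction (0) they were 8 with DESeq2, and between fractions (10333) 7463 to 11458 with 1 library left out.

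Log2 fold changes that changed sign in astrocytes were, with the covariate, -0.19 for Nfe2l2, 0.0049 for Keap1, -0.043 for Nqo1, -0.13 for Gclc, 0.18 for Srxn1 and 0.049 for Sod2. Without KO 73 and WT 78 they were -0.15 for Nfe2l2, -0.12 for Gclc, 0.13 for Srxn1 and 0.057 for Sod2. With 1 library left out the ranges were -0.070 to 0.12 for Nfe2l2, -0.13 to 0.12 for Gclc and -0.18 to 0.032 for Srxn1. In flowthrough Srxn1 had -0.0095 with library size alone, and Gclm 0.0082 with a minimum of 1 CPM and 0.0088 with limma-voom. The ranges with 1 library left out were -0.35 to 0.034 for Nfe2l2, -0.32 to 0.20 for Keap1, -0.062 to 0.38 for Nqo1, -0.073 to 0.0080 for Gclc, -0.19 to 0.22 for Gclm, -0.24 to 0.32 for Srxn1, -0.23 to 0.40 for Prdx6 and -0.065 to 0.23 for Arntl. In the interaction Nqo1 had 0.0037 with RLE factors and with DESeq2, and with library size alone Keap1 had 0.0058, Nqo1 0.088, Gclm 0.026 and Txnrd1 0.041. With 1 library left out the interaction ranged over -0.013 to 0.36 for Nfe2l2, -0.34 to 0.18 for Keap1, -0.25 to 0.20 for Nqo1, -0.10 to 0.14 for Gclc, -0.31 to 0.085 for Gclm, -0.16 to 0.029 for Txnrd1, -0.39 to 0.18 for Srxn1 and -0.039 to 0.16 for Sod2. Between fractions Gclc ranged over -0.12 to 0.0014.

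With the mouse as a replicate block the interaction was -0.12 for Nfe2l2, 0.0014 for Keap1, 0.073 for Txnrd1, 0.22 for Srxn1 and 0.079 for Cul3, and between fractions the block ended the calls of Txnrd1 (0.31) and Sqstm1 (0.18) and no other named call. KO and WT of 1 fraction come from different mice, so no block is possible there. Where leaving out a flowthrough library leaves 1 in its group, the lone library is assumed to vary like the other groups. In flowthrough there are 2 libraries a label, which limits the precision.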

Other observations

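The genes whose pattern over the 12 libraries was most like that of Nfe2l2 were Lims1, Man2b2 and Arap1. The measure was the root mean square difference of log2 CPM after centring each gene, over 9655 other genes with a mean log2 CPM of at least 3. It was 0.111 for Lims1, 0.113 for Man2b2 and 0.114 for Arap1, and the same root mean square of Nfe2l2 itself around its mean was 0.62. The 12 libraries share their fractions and mice, so this is a description of these libraries.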
